A study of Caenorhabditis elegans with 30 samples.

Results

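The cuticlin and astacin genes of Caenorhabditis elegans were followed through starvation arrest of newly hatched larvae in the double mutant irld-39(duk1); irld-52(duk17), strain LRB444, called irld here, and in the wild-type strain N2. They are the genes whose public name starts with cut-, cutl- or nas- followed by a number: 72 of the 46911 worm genes in the count table, of which 35 are cuticlins (6 cut and 29 cutl genes) and 37 are astacins. The name alone set which genes were members, but they were chosen with earlier results of these data known. Polyadenylated RNA came from whole L1 larvae held without food and collected at 6, 12, 24, 48 or 72 h of arrest, the earliest being 18 h and the latest 84 h after bleach. With 3 biological replicates at every time in either strain there are 10 groups and 30 libraries. No group was fed, so starvation and age since hatching cannot be told apart, and what the duk1 and duk17 alleles remove is not given in the sources used here.

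The cuticle of a nematode is an extracellular coat of collagens and other proteins that the epidermis secretes and replaces at every molt. Cuticlins are proteins of its insoluble, non-collagen fraction. Many carry a zona pellucida domain, and some are needed for the alae, the ridges that run along the sides of certain stages. Astacins are secreted zinc metalloproteases, and individual worm astacins are known for the hatching of the embryo, the processing of collagen precursors, the shedding of the old cuticle at molts and the building of the pharyngeal grinder. An L1 larva that hatches without food stops before it makes the next cuticle and resumes development once fed.

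Counts to worm genes were between 7563687 and 19815884 per library, with a median of 9650171. Levels are given as CPM after TMM scaling, a count relative to the library's total, with SD and n = 3 libraries, and log2 differences carry an SE. The mutated genes do not check the strain labels, because irld-39 had 30 counts over the 15 irld libraries and 38 over the 15 N2 libraries, and irld-52 had 59 and 82. Hypodermal, pharyngeal, muscle, intestinal and neuronal markers, each list summed, were present in all 30 libraries. Of the 6 hypodermis and seam markers, 1 had no count in any irld library at 24 h. The 7 adult and germline markers summed to 4.94 to 21.5 CPM, 6 early embryo markers to 0.318 to 5.36 CPM and 2 dauer markers to 0 to 3.70 CPM. A few libraries stood apart from their groups. On the first principal component of all tested genes, which ran from about the 6 h libraries to the 72 h libraries, the irld 6 h library numbered 1 lay at -51.1 and its mates at -105 and -107. The 3 N2 libraries at 24 h lay at 49.8, -19.4 and 23.9, with the library numbered 2 nearest to the early times. Its level was the highest of the 3 for several members described here, among them nas-15, with 0.229, 8.50 and 0.574 CPM.

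Both families took a smaller share of the transcripts at later times, and the summed level of the cuticlins fell by more. At 6 h, 59.7% of that sum in irld and 64.2% in N2 came from cut-2 and cut-3. By member the cuticlins did not fall by more. Their median log2 difference at 72 h was -1.05 in irld and -2.18 in N2, and that of the astacins was -2.24 and -2.26. The 35 cuticlins summed to 97.7, 95 and 96.3 CPM in the irld libraries at 72 h, against 256, 602 and 565 CPM at 6 h. In N2 they summed to 105, 87.4 and 82.8 CPM at 72 h, against 790, 491 and 651 CPM at 6 h. In neither strain did a 72 h library reach the lowest 6 h library, and the low irld value at 6 h is the library numbered 1 that stood apart. The 37 astacins summed to 136 ± 4.42 CPM in irld and 142 ± 7.12 CPM in N2 at 72 h, against 283 ± 49.9 CPM in irld and 312 ± 21.7 CPM in N2 at 6 h. In libraries of whole larvae, fewer cells of a type and less RNA per cell cannot be told apart.

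**Figure D1:**
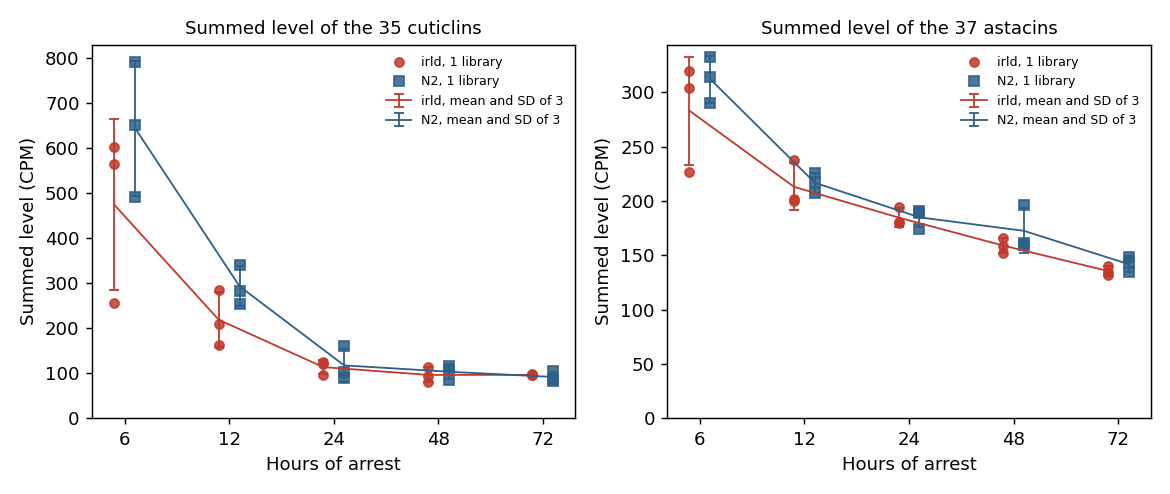
Summed CPM of the cuticlins (left) and the astacins (right) at each time of arrest, with irld in red circles left of N2 in blue squares, each mark being 1 library and the lines and bars the mean and SD of 3. The cuticlin sum at 72 h was 96.3 CPM in irld and 91.7 CPM in N2, and the 3 libraries of irld at 6 h are spread from 256 to 602 CPM.

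The genes that led the cuticlin sum differed between times. At 72 h the leading pair was cutl-26 and cutl-20, with 28.7% of the sum in irld and 31.8% in N2, and at 6 h it was cut-2 and cut-3, with 59.7% in irld and 64.2% in N2. Per kilobase of exon, averaged over all 30 libraries, cut-2 stood at 80.2 CPM per kb, cut-3 at 22.2, cutl-26 at 9.91 and cutl-15 at 8.75. The astacins were led by nas-9 at 34.9 CPM per kb, followed by nas-6 at 11.7, nas-11 at 10.1 and nas-31 at 6.86. nas-9 made up more of the astacin sum later, 37.2% in irld and 39.5% in N2 at 72 h, against 17.5% in irld and 12.2% in N2 at 6 h. Its own level was highest at 24 h.

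Of the 35 cuticlins, 33 had enough counts to be tested, and at no time was any of them called higher than at 6 h in either strain (edgeR quasi-likelihood test, Benjamini-Hochberg adjusted p under 0.05 over all 15508 tested genes, as for every call). At 12 h, 3 were lower in irld (2.42% of all tested genes were called lower) and 4 in N2 (3.55%). At 24 h, 15 were lower in irld (16.5% of all tested genes) and 15 in N2 (18.3%). At 48 h the counts were 15 in irld (23.9%) and 19 in N2 (25.6%), and at 72 h they were 17 in irld (26%) and 22 in N2 (27.9%). The median log2 difference of the tested cuticlins at 72 h was -1.05 in irld and -2.18 in N2, and that of all tested genes was -0.13 in irld and -0.11 in N2. In either direction, edgeR called 4.34% of all tested genes at 12 h, 30.6% at 24 h, 42% at 48 h and 46.6% at 72 h in irld, and 6.21%, 34.2%, 45.6% and 51.1% in N2. The 4 later times share their 6 h libraries. Leaving out the libraries numbered 2 or 3 cut the irld count at 72 h to 9 or 10 and that at 48 h to 6 or 9, and leaving out those numbered 2 cut the N2 count at 48 h to 12. The irld count at 24 h was 5 without all libraries numbered 2 or 3, 9 without the 6 h library numbered 2, 8 without the 6 h library numbered 3 and 9 without the 24 h library numbered 3. The 12 h counts came to 0 in both strains without the libraries numbered 2 or 3, and to 0 to 4 in irld and 1 to 3 in N2 without any single library. On the ERCC spike-in scale 0 cuticlins and 0 astacins were called at 12 h in either strain, and 3 cuticlins and 6 astacins in irld and 2 cuticlins and 4 astacins in N2 had an unadjusted p under 0.05 there.

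**Figure D2:**
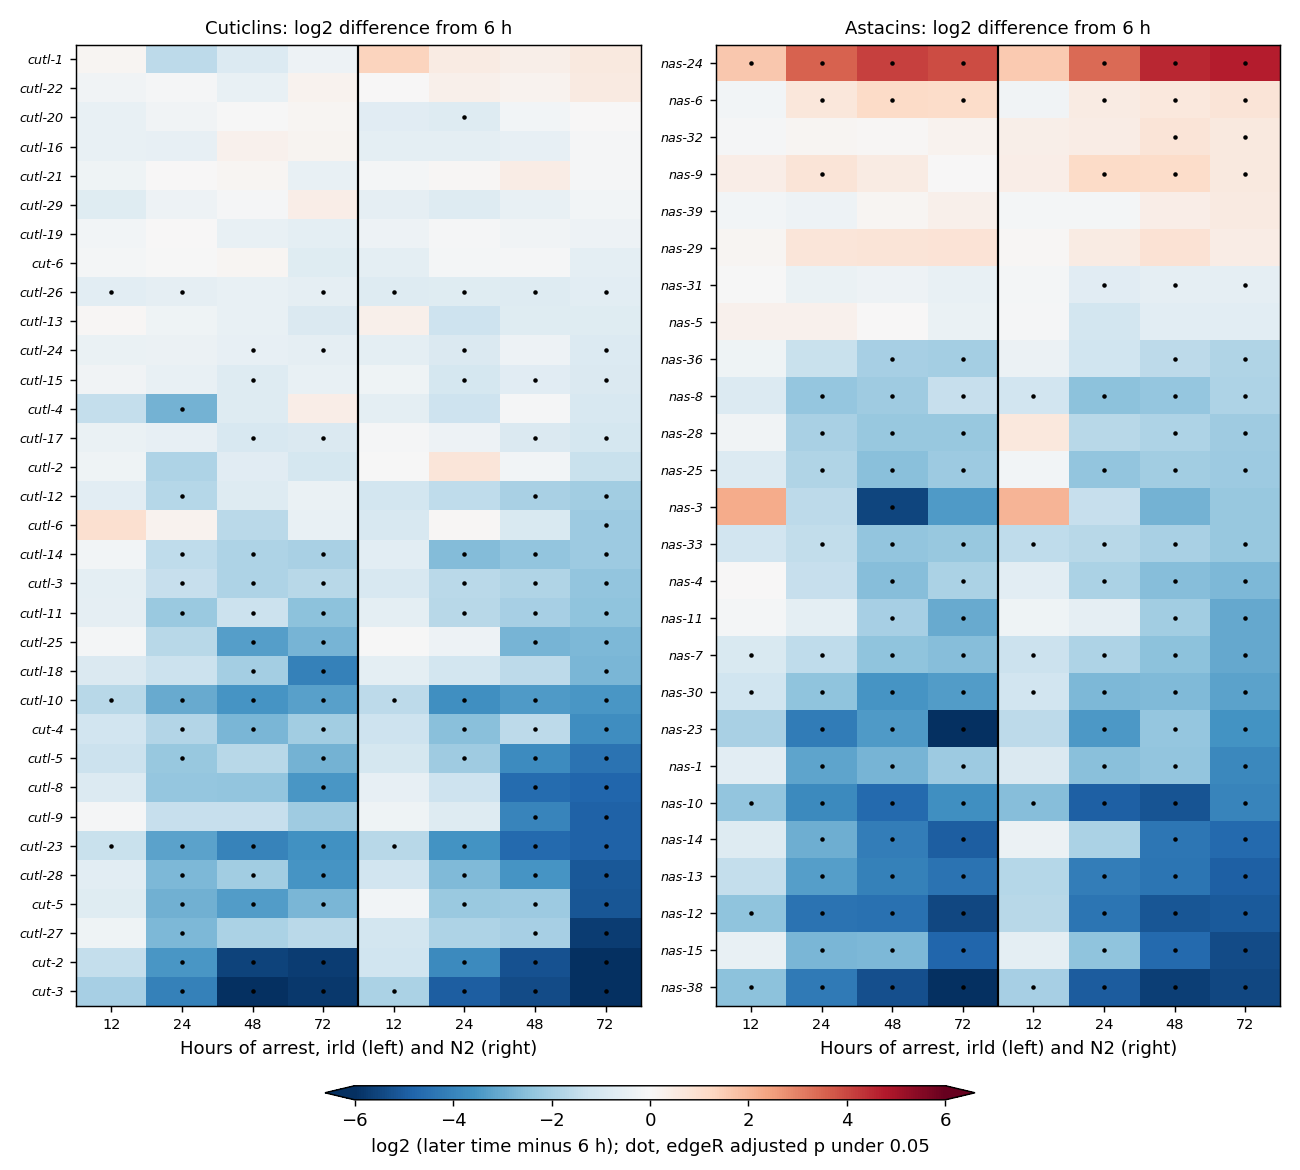
Fitted log2 difference from 6 h of the 33 tested cuticlins (left) and the 26 tested astacins (right) at 12, 24, 48 and 72 h, with the 4 irld columns left of the 4 N2 columns, blue for lower, red for higher, and a dot where edgeR's adjusted p was under 0.05. Genes are ordered by the N2 value at 72 h. Dots on blue fill the lower part of both panels, and nas-24 is the strongest red row, at 3.92 in irld and 4.72 in N2 at 72 h.

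The cut genes carry the best known roles among the cuticlins. cut-2 (WBGene00009983, V 13414949 to 13416064 on WBcel235), which encodes a cross-linked cuticle component without a zona pellucida domain, fell to 1.30, 1.80 and 8.60 CPM in irld and 4.77, 4.50 and 3.17 CPM in N2 at 72 h. At 6 h it had 98.7, 279 and 231 CPM in irld and 319, 212 and 316 CPM in N2. Every 72 h library lay far below the lowest 6 h library of its strain. The log2 difference was -5.69 ± 0.84 in irld (edgeR adjusted p = 3.93e-05) and -6.09 ± 0.84 in N2 (edgeR adjusted p = 1.65e-05). By 24 h it was at -3.51 ± 0.75 in irld and -3.80 ± 0.75 in N2, and the further difference between 72 and 24 h was not called.

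cut-3 (WBGene00009041, II 8445169 to 8446831), a zona pellucida cuticlin needed for the alae of L1 larvae, showed the largest fitted fall of the tested cuticlins in both strains. At 72 h it had 0.389, 1.32 and 2.51 CPM in irld and 1.12, 1.09 and 0.821 CPM in N2. At 6 h it had 39.1, 115 and 87.5 CPM in irld and 209, 68.5 and 115 CPM in N2. The groups of 72 and 6 h did not overlap in either strain. The log2 difference was -5.81 ± 0.75 in irld (edgeR adjusted p = 1.52e-06) and -7.0 ± 0.82 in N2 (edgeR adjusted p = 2.08e-07). At 12 h cut-3 was already called lower in N2, at -1.90, whereas irld was at -2.0 without a call. The exons of evl-20 overlap cut-3 on the opposite strand, and use of strand in the counting is not given in the sources used here.

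cut-5 (WBGene00011104, X 10333858 to 10338200), needed for the alae of L1 and dauer larvae, and cut-4 (WBGene00008482, II 10436136 to 10440087) were much lower in level and also fell. cut-5 had 0.908, 0.599 and 0.598 CPM in irld and 0, 0.243 and 0.117 CPM in N2 at 72 h. Its 6 h libraries had 1.32, 4.31 and 8.56 CPM in irld and 4.92, 3.79 and 5.54 CPM in N2. The irld fall of 2.75 ± 0.95 on the log2 scale lost its call when the libraries numbered 2 or 3 were left out, or without the 72 h library numbered 2 or 3 or the 6 h library numbered 3, with values of -2.66 to -1.83, and with limma-voom (-2.38). In N2 cut-5 came down to 3 counts over the 3 libraries at 72 h, against 199 at 6 h, a scaled ratio of 35.6 (exact interval 12.0 to 174, for counting error only). cut-4 had 0.835 ± 0.544 CPM in irld and 0.259 ± 0.151 CPM in N2 at 72 h, against 3.50 ± 1.76 CPM in irld and 3.42 ± 1.27 CPM in N2 at 6 h. Its log2 difference was -2.07 ± 0.49 in irld (edgeR adjusted p = 0.00113, but -1.17 and no call without the libraries numbered 3) and -3.71 ± 0.65 in N2 (edgeR adjusted p = 8.45e-06).

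The other cut genes did not pass the test. cut-6 (WBGene00000853, III 10911460 to 10916665), known for the body shape of dauer larvae, had 1.55 ± 0.372 CPM in irld and 2.25 ± 0.780 CPM in N2 at 72 h, against 2.59 ± 1.05 CPM in irld and 3.38 ± 0.486 CPM in N2 at 6 h. The log2 difference was -0.74 ± 0.41 in irld and -0.56 ± 0.39 in N2, with edgeR adjusted p = 0.137 and 0.233, but with library size as the only scale cut-6 was called lower in both, at -1.23 in irld and -1.08 in N2. cut-1 (WBGene00000851), a cuticlin of the dauer alae, was too low to be tested, with 17 counts over the 15 irld libraries and 24 over the 15 N2 libraries. Its libraries ranged from 0 to 5 counts in irld and from 0 to 10 in N2.

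**Figure D3:**
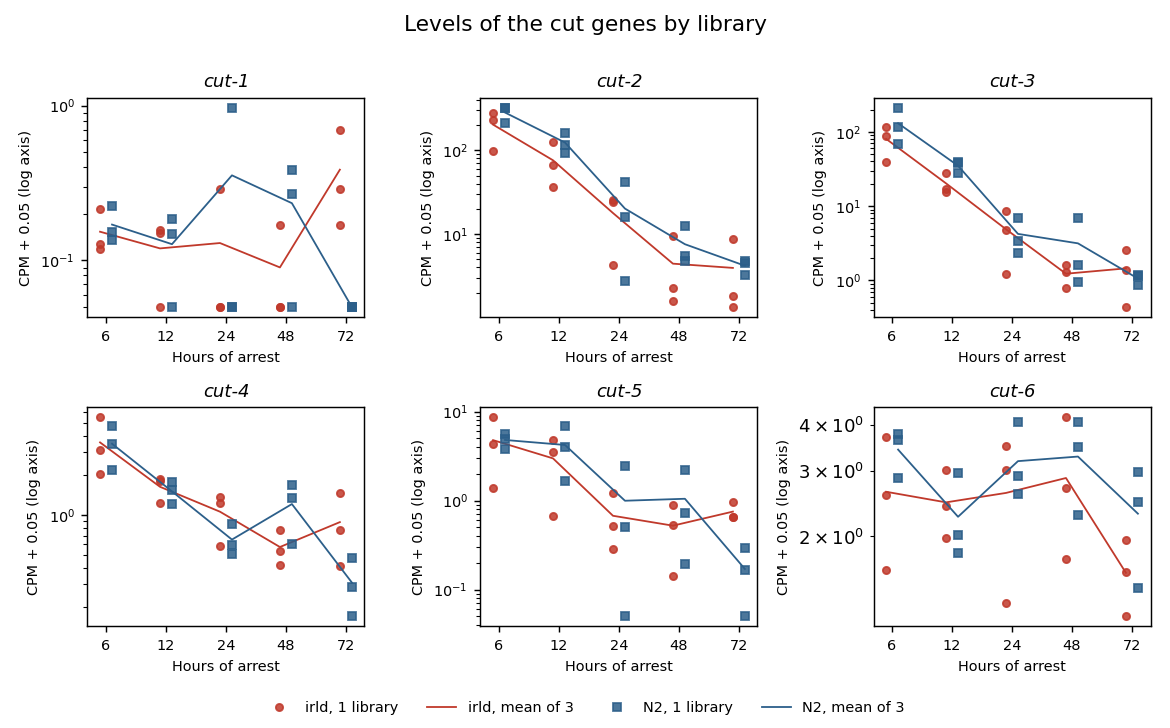
CPM + 0.05 on a log axis for the 6 cut genes at each time of arrest, with irld (red circles) left of N2 (blue squares), 1 mark per library and lines through the means of 3. cut-2 and cut-3 drop by more than an order of magnitude by 48 h in both strains, whereas the libraries of cut-6 overlap between times and those of cut-1 lie near 0.

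Among the cutl genes, which are named for their likeness to cuticlins, cutl-23 (WBGene00021343, III 5770185 to 5774703) showed a large fall in both strains. It fell to 2.08, 3.11 and 2.27 CPM in irld and 1.82, 2.19 and 0.938 CPM in N2 at 72 h, against 12.4, 34.1 and 47.9 CPM in irld and 63.6, 43.3 and 38.3 CPM in N2 at 6 h. No 72 h library overlapped a 6 h library of its strain, and the log2 difference was -3.65 ± 0.42 in irld (edgeR adjusted p = 1.86e-07) and -4.87 ± 0.45 in N2 (edgeR adjusted p = 4.45e-09). It was called from 12 h on in both strains. The exons of rev-3 overlap it on the opposite strand. cutl-10, chosen after its values were seen, was likewise called from 12 h on in both strains, with 1.64 ± 0.182 CPM in irld and 1.60 ± 0.559 CPM in N2 at 72 h, against 15.5 ± 6.40 CPM in irld and 18.5 ± 3.10 CPM in N2 at 6 h.

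cutl-28 (WBGene00018256, IV 684497 to 688340) and cutl-26 (WBGene00021950, IV 698699 to 707735) are neighbours on chromosome IV, and both were called lower, to different extents. cutl-28 had 0.389, 0.359 and 0.478 CPM in irld and 0, 0.486 and 0.117 CPM in N2 at 72 h, against 1.57, 5.85 and 7.13 CPM in irld and 7.63, 7.44 and 7.19 CPM in N2 at 6 h. Its log2 difference was -3.53 ± 0.88 in irld and -5.08 ± 1.09 in N2. cutl-26 kept most of its level, with 15 ± 1.59 CPM in irld and 15.4 ± 2.00 CPM in N2 at 72 h, against 21.7 ± 1.67 CPM in irld and 23.7 ± 3.87 CPM in N2 at 6 h. The difference of -0.53 ± 0.18 in irld (edgeR adjusted p = 0.0195) and -0.63 ± 0.18 in N2 (edgeR adjusted p = 0.00562) was present at 12 h and did not grow. The irld call was lost without the libraries numbered 1 or 2, without the 72 h library numbered 1 or 2 or without the 6 h library numbered 2, and the N2 call without the libraries numbered 2 or the 6 h library numbered 1. The irld call was also lost with upper quartile scaling (-0.43), with only the compared groups (-0.46) and on the ERCC scale (-1.99), and the N2 call on the ERCC scale (-0.99).

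A further group of 5 cuticlins was called lower at 72 h in N2 and not in irld: cutl-6, cutl-9, cutl-12, cutl-15 and cutl-27. The N2 call was lost on the ERCC scale for cutl-6 (-3.0), cutl-12 (-2.86) and cutl-15 (-1.40), and for cutl-6 also with upper quartile scaling (-2.07). In irld, library size as the only scale gave a call for cutl-9 (-2.65), cutl-15 (-0.91) and cutl-27 (-2.13). cutl-9 was also called there by DESeq2 (-2.16), on the ERCC scale (-3.54) and with the replicate block (-2.12), and cutl-15 by limma-voom (-0.47) and with the replicate block (-0.44). cutl-27 (WBGene00007802, IV 11878549 to 11884134) had 0.519, 0.719 and 0.120 CPM in irld and 0.140, 0 and 0 CPM in N2 at 72 h, against 0.495, 2.08 and 1.70 CPM in irld and 3.48, 2.00 and 2.87 CPM in N2 at 6 h. The libraries of 72 and 6 h overlapped in irld and not in N2, where 1 count was left against 115, a scaled ratio of 61.7 (exact interval 10.9 to 2458). cutl-9 (WBGene00010893, II 10622265 to 10625946) had 3 counts at 72 h in N2, against 172 at 6 h, a ratio of 30.8 (10.4 to 151), and in irld its difference was -2.15 ± 0.98 without a call (edgeR adjusted p = 0.0672). Without the irld 6 h library numbered 1 or all libraries with that number cutl-9 was called lower in irld too, at -2.60 to -2.15. cutl-15 (WBGene00011888, II 8942668 to 8947688), 1 of the 4 highest cuticlins per kilobase, stood at -0.43 ± 0.18 in irld and -0.85 ± 0.18 in N2, and it was called lower in irld at 48 h. At 72 h the irld library numbered 1 had 16 CPM and its mates 11 and 8.72 CPM, and the fall was called without it and without the irld 6 h library numbered 1. cutl-6 and cutl-12, chosen after their values were seen, had 0.319 ± 0.301 and 1.31 ± 0.316 CPM in irld at 72 h, and 0.172 ± 0.150 and 0.507 ± 0.443 CPM in N2. The test of the difference between the strains in these changes called none of the 5.

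The 17 cuticlins that fell in irld at 72 h were all among the 22 that fell in N2, which is 100% of the irld list and 77.3% of the N2 list. Of the 15 lower at 24 h in each strain, 12 were shared, 80.0% of either list. The same overlap over all tested genes was not worked out, so this sharing is not shown to be particular to cuticlins. The 11 tested cuticlins without a call at 72 h in either strain were cut-6, cutl-1, cutl-2, cutl-4, cutl-13, cutl-16, cutl-19, cutl-20, cutl-21, cutl-22 and cutl-29. cutl-16 had 8.51 ± 2.79 CPM in irld and 10.0 ± 6.30 CPM in N2 at 72 h, against 7.50 ± 1.92 CPM in irld and 10.4 ± 2.44 CPM in N2 at 6 h. cutl-22 had 3.68 ± 1.39 CPM in irld and 3.02 ± 0.517 CPM in N2 at 72 h, against 3.16 ± 0.851 CPM in irld and 2.06 ± 0.796 CPM in N2 at 6 h. Neither difference was called, and the libraries of the 2 times overlapped for both genes in both strains.

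Between 24 and 72 h few cuticlins moved further. cutl-20 (WBGene00018787, I 963692 to 969457), whose exons overlap shc-1 on the same strand, was low at 24 h in N2 and back at 72 h. It had 13.8, 13.1 and 13.4 CPM at 6 h, 7.89, 6.95 and 8.39 CPM at 24 h and 17.9, 12.0 and 11.4 CPM at 72 h in N2. The 24 h libraries lay below those of 6 and 72 h, with a log2 difference of -0.80 ± 0.24 from 6 h (edgeR adjusted p = 0.0112, not called on the ERCC scale) and a rise of 0.83 ± 0.24 at 72 h against 24 h (edgeR adjusted p = 0.0302). In irld cutl-20 had 11.6 ± 3.70, 9.96 ± 2.56 and 12.6 ± 2.69 CPM at these times, and neither step was called. cutl-9 in N2 was the only cuticlin called lower at 72 h against 24 h (4.14% of all tested genes), and cutl-20 the only one called higher there (5.75%). In irld, cutl-4, named after its values were seen, alone was called, higher by 3.20 ± 1.17 (3.94% of all tested genes were called higher), with 1.69, 1.08 and 0.478 CPM at 72 h, against 0.239, 0.0935 and 0 CPM at 24 h. These counts depended on single libraries: in N2 they ranged from 0 to 7 and in irld from 0 to 1 when 1 library was left out, and cutl-4 was no longer called without any of 5 libraries, namely those of 72 h numbered 1 or 2 and those of 24 h numbered 1, 2 or 3.

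Of the 37 astacins, 26 were tested, and they split into many that fell and a few that rose. At 12 h, 5 were lower and 1 was higher in irld (2.42% of all tested genes were called lower and 1.92% higher). In N2, 6 were lower and 0 higher (3.55% and 2.66%). At 24 h, 16.5% of all tested genes were called lower and 14.1% higher in irld, and 18.3% and 15.9% in N2. Both strains then had 14 astacins lower and 3 higher. These 3 were nas-6, nas-9 and nas-24 in both strains, and on the ERCC scale none of them was called at 24 h. There nas-6 was at -0.57 in irld and -1.03 in N2, nas-9 at -0.82 and -0.19, and nas-24 at 2.79 and 1.90. With library size as the only scale nas-6 was not called either (0.41 and 0.22). At 48 h, 18 were lower and 2 higher in irld (23.9% of all tested genes called lower and 18.1% higher). In N2, 18 were lower and 4 higher at 48 h (25.6% and 20.0%). At 72 h, 17 were lower and 2 higher in irld (26% of all tested genes called lower and 20.6% higher). In N2, 18 were lower and 4 higher at 72 h (27.9% and 23.1%). The median log2 difference of the tested astacins at 72 h was -2.24 in irld and -2.26 in N2, and that of all tested genes was -0.13 and -0.11. The 12 h counts of calls came to 0 in both strains without the libraries numbered 2, and in irld also without the libraries numbered 3 or the 6 h library numbered 3. Without the libraries numbered 2 the irld count of calls was 9 at 24 h and 12 at 48 h, and without those numbered 3 it was 10 at 24 h. At 12 h it was 1 to 3 without the irld 6 h library numbered 2 or any one of the 12 h libraries, and the N2 count was 3 without all libraries numbered 3 or the 12 h library numbered 2 or 3. The N2 count of 4 higher at 72 h was 2 without the libraries numbered 2.

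Several astacins that fell have known roles in the larva. nas-38 (WBGene00003554, X 558157 to 563708), known from work on molting and the sleep that goes with it, had 0.389, 0.240 and 0.239 CPM in irld and 0.841, 0.972 and 0.352 CPM in N2 at 72 h. Its 6 h libraries had 8.50, 21.1 and 39.6 CPM in irld and 40.1, 30.2 and 25 CPM in N2. All 72 h libraries were below 1 CPM. The log2 difference was -6.27 ± 0.86 in irld (edgeR adjusted p = 6.91e-08) and -5.45 ± 0.64 in N2 (edgeR adjusted p = 8.00e-08), and by 24 h it was -4.23 ± 0.55 in irld and -4.99 ± 0.57 in N2. nas-36 (WBGene00003552, I 7527224 to 7531715), needed to shed the old cuticle, was less abundant, with 0.727 ± 0.719 CPM in irld and 0.750 ± 0.519 CPM in N2 at 72 h, against 3.00 ± 0.984 CPM in irld and 2.68 ± 0.618 CPM in N2 at 6 h. It fell by 2.02 ± 0.58 in irld and by 1.81 ± 0.58 in N2, but the call was lost in irld without the libraries numbered 2 and in N2 without those numbered 1 or 3 or the 72 h library numbered 3, and in N2 on the ERCC scale (-2.87). nas-37, which acts with nas-36 at the molt, had 65 counts over the 15 irld libraries and 67 over the 15 N2 libraries and was not tested.

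nas-7 (WBGene00003526, II 7400545 to 7402725) and nas-6 (WBGene00003525, IV 17486842 to 17490779) are both known for the grinder of the pharynx, and they moved in opposite directions. nas-7 had 2.08, 2.75 and 1.55 CPM in irld and 1.82, 1.46 and 1.88 CPM in N2 at 72 h, against 9.99, 12.3 and 15.5 CPM in irld and 15.9, 13.6 and 14.6 CPM in N2 at 6 h. Its mean levels stepped down at each later time in both strains, and it was called at every one of them (on the ERCC scale neither at 12 h in either strain nor at 24 h in irld), with -2.56 ± 0.26 in irld (edgeR adjusted p = 1.93e-08) and -3.09 ± 0.27 in N2 (edgeR adjusted p = 1.12e-09) at 72 h. nas-6 had 21.8, 27.8 and 23.8 CPM in irld and 22.4, 19.3 and 23.1 CPM in N2 at 72 h. Its 6 h libraries had 10.3, 14.9 and 8.90 CPM in irld and 15, 11.3 and 11.3 CPM in N2. All 72 h libraries lay above all 6 h libraries, and the rise was 1.10 ± 0.15 in irld (edgeR adjusted p = 2.73e-06) and 0.79 ± 0.15 in N2 (edgeR adjusted p = 0.000155). With the ERCC spike-in as the scale, nas-6 in irld stood at -0.34 and in N2 at 0.34, neither called, while the median gene of those fits stood at -1.58 in irld and -0.57 in N2, and with library size as the only scale the N2 value was 0.27 without a call. The exons of C07D10.1 overlap nas-7 on the opposite strand. The 5 pharynx markers summed to 373 to 581 CPM per library in irld and 249 to 1364 CPM in N2 at 72 h, against 1701 to 2866 CPM in irld and 1782 to 2471 CPM in N2 at 6 h. Of these 5, none at 0 in any group, all fell in irld (26% of all tested genes called lower) and 3 in N2 (27.9%). Their part in these results was not tested.

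The largest rise of any member was that of nas-24 (WBGene00003543, V 13769386 to 13771329). It had 0.248, 0.846 and 0.272 CPM in irld and 0.509, 0.218 and 0.411 CPM in N2 at 6 h. At 24 h it had 4.77, 3.65 and 7.75 CPM in irld and 3.66, 4.20 and 3.68 CPM in N2, and at 72 h 6.75, 7.19 and 7.17 CPM in irld and 10.9, 10.1 and 7.86 CPM in N2. Every library of 24 h or later was above every earlier library. The log2 difference at 72 h was 3.92 ± 0.45 in irld (edgeR adjusted p = 5.86e-08) and 4.72 ± 0.47 in N2 (edgeR adjusted p = 3.57e-09), and 3.01 and 4.34 with the ERCC spike-in as the scale. In N2 it was also called higher at 72 h than at 24 h, by 1.32 ± 0.35 (edgeR adjusted p = 0.0182), and in irld it was 0.39 ± 0.35 without a call.

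nas-9 (WBGene00003528, V 4836027 to 4840013), the most abundant astacin, followed an arch. It had 66.7, 45.5 and 36.3 CPM in irld and 32, 43.2 and 38.8 CPM in N2 at 6 h, 82.8, 90.0 and 80.3 CPM in irld and 84.9, 76.8 and 88.1 CPM in N2 at 24 h, and 52.4, 48.0 and 50.8 CPM in irld and 46.7, 66.1 and 55.6 CPM in N2 at 72 h. The 24 h libraries of both strains were above all their 6 h and 72 h libraries. At 24 h it was called higher in both strains, by 0.77 ± 0.20 in irld and 1.13 ± 0.20 in N2. At 72 h it was 0.03 ± 0.20 in irld and 0.56 ± 0.20 in N2, where the call (edgeR adjusted p = 0.0195) was lost without the libraries numbered 2, the 6 h library numbered 1 or the 72 h library numbered 2, with library size as the only scale (0.05) and on the ERCC scale (0.10). On the ERCC scale the 24 h value was -0.82 in irld and -0.19 in N2, neither called, which lay 0.55 and 1.25 above the median gene. nas-32 (WBGene00003550, V 894909 to 899187) was called higher at 72 h in N2 alone, at 0.61 ± 0.23, with 0.22 ± 0.23 in irld. That call was lost without the libraries numbered 1 or 2 and without the 6 h library numbered 1 or 2 or the 72 h library numbered 1, with library size as the only scale (0.08), on the ERCC scale (0.45) and with no filter on low counts (0.55).

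**Figure D4:**
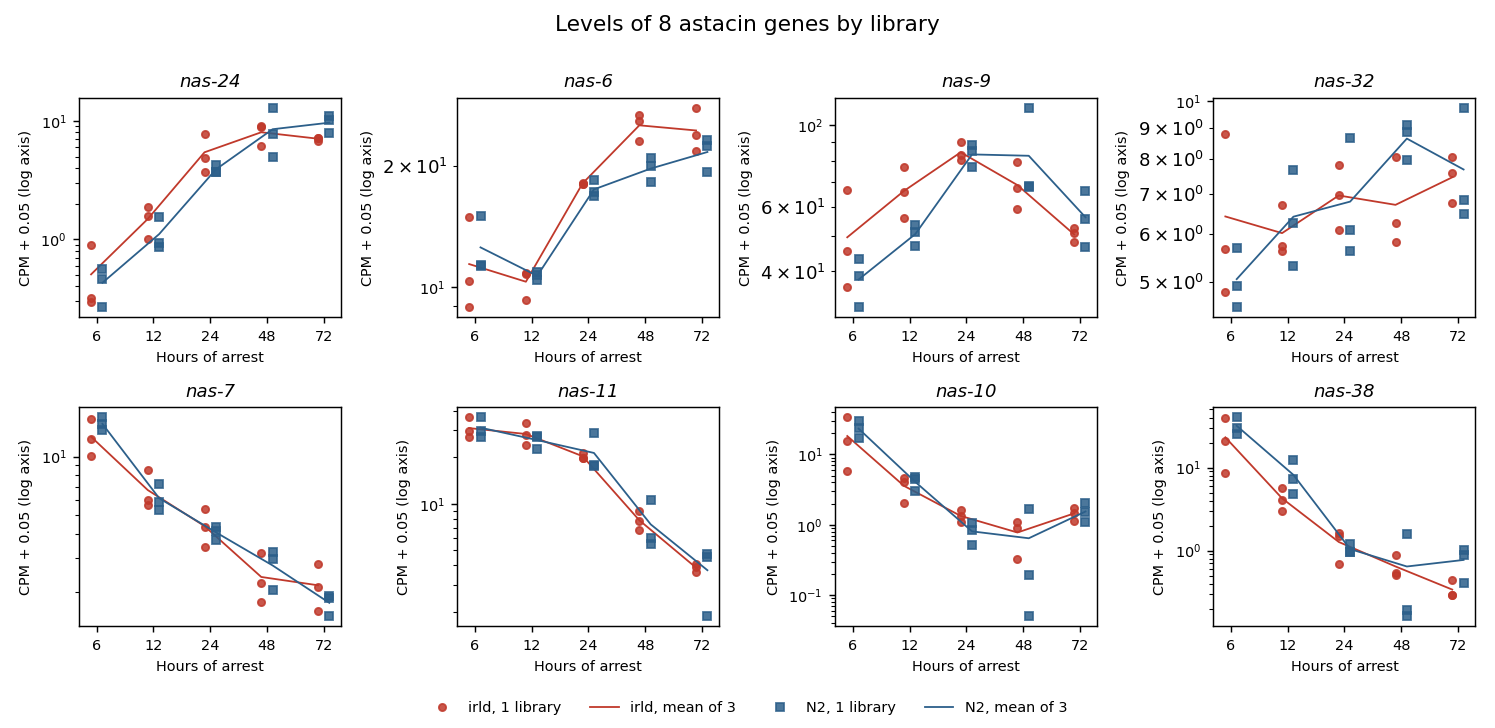
CPM + 0.05 on a log axis for 8 astacin genes at each time of arrest, with irld (red circles) left of N2 (blue squares), 1 mark per library and lines through the means of 3. The upper row holds the 4 astacins called higher in N2 at 72 h and the lower row 4 that fell in both strains, and the vertical ranges differ between panels.

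A set of astacins between nas-10 and nas-15 made up most of the other large falls. nas-10 (WBGene00003529, X 10960914 to 10963503) dropped early, with 1.28 ± 0.261 CPM in irld and 0.755 ± 0.276 CPM in N2 at 24 h, against 5.70, 15.4 and 33.5 CPM in irld and 16.8, 29.3 and 23.4 CPM in N2 at 6 h. It was not called lower again after 24 h, and at 72 h its log2 difference from 6 h was -3.70 ± 0.61 in irld and -3.96 ± 0.61 in N2. nas-11 (WBGene00003530, X 6713577 to 6716357) dropped late. It had 20.3 ± 0.984 CPM in irld and 21.3 ± 6.33 CPM in N2 at 24 h, not called against 6 h, and 4.02, 3.83 and 3.59 CPM in irld and 1.82, 4.50 and 4.69 CPM in N2 at 72 h, against 29.4, 27 and 36.2 CPM in irld and 27.2, 36.2 and 29.8 CPM in N2 at 6 h. Between 24 and 72 h alone it fell by 2.41 ± 0.27 in irld (edgeR adjusted p = 4.99e-06) and by 2.52 ± 0.27 in N2 (edgeR adjusted p = 6.21e-06). The exons of K09C8.2 overlap nas-10, and those of smf-2 overlap nas-11, on the opposite strand.

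nas-12, nas-13, nas-14 and nas-15 went to very low levels in both strains. nas-12 (WBGene00003531, IV 10224023 to 10226387) had 2 counts over the irld libraries and 3 over the N2 libraries at 72 h, against 164 and 203 at 6 h, which is a scaled ratio of 50.3 (exact interval 13.7 to 419) in irld and 36.3 (12.2 to 178) in N2. nas-13 (WBGene00003532, X 15425099 to 15428253) had 0.286 ± 0.300 CPM in irld and 0.316 ± 0.357 CPM in N2 at 72 h, against 6.38 ± 3.97 CPM in irld and 10.1 ± 2.32 CPM in N2 at 6 h. nas-14 (WBGene00003533, IV 13170541 to 13174144) had 0.130, 0.359 and 1.67 CPM in irld and 0.140, 0.365 and 2.81 CPM in N2 at 72 h, so that the library numbered 3 was the highest in both strains, against 23.1 ± 14.6 CPM in irld and 29.3 ± 5.92 CPM in N2 at 6 h. nas-15 (WBGene00003534, X 777721 to 780533) had 0.405 ± 0.270 CPM in irld and 0.391 ± 0.677 CPM in N2 at 72 h, against 11.4 ± 5.37 CPM in irld and 17.3 ± 5.27 CPM in N2 at 6 h. The log2 differences of nas-13, nas-14 and nas-15 at 72 h were -4.42, -4.95 and -4.76 in irld and -4.89, -4.66 and -5.35 in N2, all called. Genes overlap nas-12 (F01G10.6) and nas-13 (F39D8.3) on the opposite strand.

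nas-30 (WBGene00003548, I 938483 to 947710) was called lower at every later time in both strains, with -3.35 ± 0.36 in irld and -3.23 ± 0.34 in N2 at 72 h. nas-23 (WBGene00003542, II 7491267 to 7493699) had 0 counts in the 3 irld libraries at 72 h, against 62 at 6 h, at least 12.7-fold lower with a floor of 3 counts over the group, and 3 counts in N2, against 71 at 6 h, a ratio of 12.7 (exact interval 4.17 to 63.0). nas-31 (WBGene00003549, V 10918857 to 10921847), 1 of the 4 highest astacins per kilobase, changed little, at -0.46 ± 0.19 in irld and -0.54 ± 0.19 in N2. Only the N2 value was called (edgeR adjusted p = 0.0200), and that call was lost without the libraries numbered 1 or 2, the 6 h library numbered 1 or 2 or the 72 h library numbered 1, while irld was called at -0.64 without its 72 h library numbered 2. The N2 call was also lost with upper quartile scaling (-0.43), with only the compared groups (-0.48) and on the ERCC scale (-1.18), and irld was called with library size as the only scale (-0.93), limma-voom (-0.48) and the replicate block (-0.46). The remaining falls called at 72 h in both strains, named after their values were seen, were those of nas-1, nas-4, nas-8, nas-25, nas-28 and nas-33, at -2.28 to -1.37 in irld and -3.86 to -1.86 in N2. On the ERCC scale nas-8 and nas-28 were not called in N2, both at -2.48.

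nas-8, chosen after its values were seen, was low at 24 h and higher again at 72 h. It had 8.49 ± 2.49 CPM in irld and 10.9 ± 2.71 CPM in N2 at 6 h, 1.07, 1.96 and 2.02 CPM in irld and 1.71, 2.01 and 2.18 CPM in N2 at 24 h, and 3.76, 3.35 and 2.75 CPM in irld and 2.94, 2.92 and 3.17 CPM in N2 at 72 h. The libraries of 24 and 72 h did not overlap in either strain, and the step was called in irld, at 0.95 ± 0.29 (edgeR adjusted p = 0.0483), and not in N2, at 0.61 ± 0.29. In all, 1 astacin was higher and 3 were lower (nas-7, nas-9 and nas-11) at 72 h against 24 h in irld, where 2.96% of all tested genes were called lower, and 1 was higher (nas-24) and 2 lower (nas-7 and nas-11) in N2. In either direction 6.9% of all tested genes were called there in irld and 9.89% in N2. The irld count of 4 calls became 1 to 3 when any 1 library was left out (1 without the 24 h library numbered 2 or the 72 h library numbered 1 or 3, 2 without the 72 h library numbered 2), and the N2 count of 3 became 1 without the libraries numbered 1 or 2. With the replicate number as a block the N2 count was 5.

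Tested astacins without a call at 72 h in either strain were nas-3, nas-5, nas-29 and nas-39, of which nas-3, nas-29 and nas-39 were chosen after their values were seen. nas-3 was highest at 12 h, with 1.05, 1.61 and 5.18 CPM in irld and 1.73, 4.32 and 1.85 CPM in N2, and in irld it was called lower at 48 h, with 0 counts, against 23 at 6 h. At 72 h nas-3 had 1 count in irld, against 23 at 6 h, a scaled ratio of 14.1 (exact interval 2.29 to 581, for counting error only). In N2 it had 3 counts, against 28, a ratio of 5.01 (1.55 to 25.7). Its libraries of 72 and 6 h overlapped in both strains. nas-39, a gene of the tolloid type, had 6.89 ± 1.68 CPM in irld and 8.52 ± 2.49 CPM in N2 at 72 h, against 5.53 ± 0.921 CPM in irld and 5.89 ± 0.740 CPM in N2 at 6 h. nas-29 had 4.24 ± 1.04 CPM in irld and 3.16 ± 0.416 CPM in N2 at 72 h, against 2.38 ± 0.796 CPM in irld and 2.28 ± 0.549 CPM in N2 at 6 h. All 3 libraries of nas-29 at 72 h lay above those at 6 h in both strains, but the difference was not called, at 0.83 ± 0.39 in irld and 0.45 ± 0.39 in N2, and the libraries of nas-39 overlapped.

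Over all 5 times together, with 4 degrees of freedom, 15 cuticlins and 21 astacins changed in irld (43.1% of all tested genes were called), and 22 cuticlins and 23 astacins in N2 (49.6%). Without the libraries numbered 2 or 3 the cuticlin count was 6 or 9 in irld and 14 either way in N2, and without those numbered 2 the astacin count in irld was 11. Of the cuticlins, 3 were first called at 12 h, 12 at 24 h, 5 at 48 h and 1 at 72 h in irld, and 4, 11, 6 and 2 in N2. Of the astacins that fell, 5 were first called at 12 h, 9 at 24 h and 4 at 48 h in irld, and 6, 8 and 4 in N2. Lower calls over all tested genes also went from 2.42% at 12 h to 16.5% at 24 h in irld, and from 3.55% to 18.3% in N2. First calls were not counted over all tested genes, so this timing is not shown to be particular to the 2 families.

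The members that were not tested sit close together in part. A run of nas-16, nas-18, nas-17 and nas-19 lies within V 11392320 to 11402710, and nas-20, nas-21 and nas-22 lie within V 11470925 to 11478007. None of these 7 neighbours, whose counts ranged from 0 to 6 per library in irld and from 0 to 5 in N2, was tested. The 2 gene identifiers that share the name nas-2, also on chromosome V, had 2 and 7 counts over the 15 irld libraries and 3 and 7 over the 15 N2 libraries. Chromosome V held 14 of the 37 astacins but 5 of the 26 tested, and 3 of the 4 called higher at 72 h in N2 (nas-9, nas-24 and nas-32) were among them. nas-27 had 55 counts over the irld libraries and 44 over the N2 libraries, and cutl-7 had 38 and 28. How alike these neighbours are in sequence was not examined. Reads that match several genes could have been split or dropped, since reads with more than 2 alignments were discarded, per the deposited text sheet.

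Between the strains, no cuticlin and no astacin was called. For the mean over the 5 times, edgeR called 0 of 33 cuticlins and 0 of 26 astacins (0.0% of all tested genes). An unadjusted p under 0.05 was met by 0 cuticlins, by 4 astacins (15.4% of those tested) and by 5.4% of all tested genes. Neither DESeq2 nor limma-voom called a member. The median log2 difference, irld less N2, was -0.06 for cuticlins and -0.02 for astacins, and the 95% interval lay within a 2-fold change for 20 cuticlins and 18 astacins. A p that misses the threshold does not show that the levels were alike in the others. cut-2 was at -0.46 ± 0.36 and cut-3 at -0.45 ± 0.33, cut-5 at 0.01 ± 0.51, nas-9 at 0.07 ± 0.09, nas-6 at 0.08 ± 0.07 and nas-24 at 0.14 ± 0.18.

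The 4 astacins with the smallest p in this comparison were nas-5, nas-30, nas-23 and nas-39, each with edgeR adjusted p = 0.916. nas-5 (WBGene00003524) had the higher mean in irld at all 5 times, with 1.41 ± 0.395, 1.67 ± 1.10, 1.68 ± 1.40, 1.40 ± 0.586 and 1.06 ± 0.361 CPM in irld and 1.17 ± 0.254, 1.12 ± 0.442, 0.550 ± 0.266, 0.744 ± 0.160 and 0.715 ± 0.627 CPM in N2, a log2 difference of 0.78 ± 0.30. nas-30 stood at -0.40 ± 0.16, and its libraries overlapped between strains at every time but 48 h. nas-23 stood at -1.21, with no SE because its irld libraries at 72 h are all at 0, and nas-39 at -0.24 ± 0.11. For the cuticlins the smallest p belonged to cutl-22 (0.27), cutl-9 (0.80) and cutl-16 (-0.22), each without a call.

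The course over time was also compared between strains. For a strain difference that changes with time, edgeR called 0 members (0.0% of all tested genes). An unadjusted p under 0.05 was met by 1 cuticlin (cut-4), 0 astacins and 0.77% of all tested genes. For the change between 6 and 72 h, irld less N2, edgeR called 0 members (0.0%). Here 0 astacins, 1.95% of all tested genes and 2 cuticlins had an unadjusted p under 0.05. These 2 were cutl-27, at 4.04 ± 2.17, and cut-4, at 1.64 ± 0.82, both with edgeR adjusted p = 1.00. The larger count of cuticlins that fell in N2 is thus not shown to differ from that in irld. DESeq2 and limma-voom called no member in either comparison.

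Other genes of the cuticle and of molting were mostly lower after 72 h of arrest. At that time 26% of all tested genes were called lower in irld and 27.9% in N2. The astacins that go by other names are hch-1, the hatching enzyme, dpy-31, which processes collagen precursors, and toh-1. All 3 were called lower at 72 h in both strains. hch-1 fell by 3.90 ± 1.03 in irld and by 6.15 ± 1.43 in N2, and dpy-31 fell by 0.74 ± 0.14 in irld and by 0.81 ± 0.14 in N2. The collagen sqt-3, a substrate of DPY-31, fell by 5.06 ± 0.80 in irld and by 6.37 ± 0.83 in N2. Of 8 tested genes of the list of collagens tied to astacin processing and of cross-linking enzymes, 6 fell in irld and 7 in N2, and none rose. Of 6 other zona pellucida genes of the matrix, 5 fell in irld and 6 in N2, among them noah-1, which fell by 2.76 ± 0.54 in irld and by 3.55 ± 0.56 in N2. Of 5 precuticle lipocalin and leucine-rich repeat genes, 3 fell in each strain, with lpr-3 at -3.42 ± 1.03 in irld and -6.60 ± 1.60 in N2.

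Molting proteases and inhibitors outside the astacins went both ways, with 3 of 6 tested lower and 1 higher in each strain. Of all tested genes, 26% were called lower and 20.6% higher in irld at 72 h, and 27.9% and 23.1% in N2. mlt-11, an inhibitor gene, fell by 2.98 ± 0.72 in irld and by 5.39 ± 0.94 in N2, and cpz-1, a cathepsin gene, rose by 1.38 ± 0.26 in irld and by 2.12 ± 0.26 in N2. Of 9 transcription factors of molting and epidermis, 5 fell in each strain. blmp-1 fell by 1.73 ± 0.19 in irld and by 2.25 ± 0.19 in N2, and nhr-25 fell by 0.72 ± 0.19 in irld and by 1.00 ± 0.19 in N2. nhr-23, which drives molting genes and is named after its values were seen, was at -0.27 ± 0.23 in irld without a call and fell by 0.59 ± 0.23 in N2. Of the 6 hypodermis and seam markers, 5 were tested, with 3 lower and 0 higher in irld and 2 lower and 1 higher in N2. Those lower were grd-10 (-4.64 in irld and -4.45 in N2), dpy-7 (-2.32 and -4.19) and, in irld alone, elt-1 (-0.62, and -0.43 in N2). The higher one in N2 was ceh-16 (0.67, and 0.10 in irld). The marker with the highest mean level, elt-3, was called in neither strain (0.34 in irld and 0.22 in N2). Their summed level per library was 72.5 to 86.6 CPM in irld and 67.1 to 76.0 CPM in N2 at 72 h, against 145 to 206 CPM in irld and 177 to 220 CPM in N2 at 6 h, with no marker at 0 in these groups. The part of a change in epidermal RNA in the falls of the cuticlins and astacins was not tested.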

How the data were processed

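RNA of whole arrested L1 larvae was sequenced from 3 biological replicates of each strain and time. The authors deposited raw counts per gene, made with Bowtie 1.2.2 and HTSeq 0.11.2 per the submitters' processing notes, and the deposited text sheet names the WS273 genome with 92 ERCC spike-in sequences. HTSeq settings are not given in the sources used here. The authors also deposited a table of CPM, and one of log2 fold changes, F scores and p-values made with edgeR 3.24.4, and no value of these is printed.

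Gene names matched 44053 of 46911 worm genes (93.9%), and coordinates are those of WBcel235. Counts of worm genes were filtered with edgeR's filterByExpr, scaled by TMM and fitted with edgeR 4.0.16 (R 4.3.3) as 10 groups over all 30 libraries, with robust quasi-likelihood tests and Benjamini-Hochberg adjustment over 15508 genes at 0.05. SEs come from the fitted model and intervals are at 95%. Ratios of very low counts have exact intervals that cover counting error only. The test scripts were tested on simulated data. ERCC controls took 0.304 to 3.88% of counted reads, and reads that were not aligned 35.3 to 40.7%. The ERCC share differed within groups, with 0.304, 1.57 and 1.96% in irld at 6 h and 0.441, 3.20 and 2.14% in N2 at 72 h. It was lowest in the library numbered 1 of every group. Calls over all tested genes at 72 h against 6 h were 7223 in irld and 7919 in N2 with TMM, and 3485 and 1873 with ERCC scaling. A call lost on the ERCC scale thus does not by itself show an unchanged absolute level. No replicate was a copy of another, with chi-square per gene of 7.25 to 93.5. The biological coefficient of variation was 0.256. The p-values measure the spread between these replicates. Nothing in the labels says what a replicate number marks. Deviations from the group means correlated above 0.1 for every same-numbered pair in 9 of 20 pairs of times within a strain, and in 0 of 25 pairs of groups between strains. Among the 9 were 12 and 6 h in both strains, 24 and 6 h in irld and 72 and 24 h in N2, but not 72 and 6 h in either strain. The main fit held no term for the replicate number.

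The members and gene lists were chosen with earlier results of these data known. The text names 33 members by rule: those with known roles, the largest called changes at 72 h in N2, the highest levels per kilobase, the smallest p between strains, and a turn at 24 h. Alternatives were RLE, upper quartile, library size and ERCC scaling, DESeq2 1.42.0, limma-voom (limma 3.58.1), no filter, a replicate block, only the compared groups, and fits without each replicate number or library. Protein and promoter sequences were not used here.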

Additional observations from a re-analysis of the deposited data

How the results depend on the processing

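The median log2 difference of both families lay below that of all tested genes at 24 and 72 h in each strain under every scaling tried. For cuticlins at 72 h against 6 h it was -1.05 in irld and -2.18 in N2 with edgeR and TMM. The irld median was -1.58 with limma-voom, -1.75 with only the compared groups and -0.90 with no filter. The N2 median was -2.17, -2.21 and -2.23 in these fits. The median gene moved with the scale: at 72 h against 6 h it was at -0.13 in irld and -0.11 in N2 with TMM, -0.59 and -0.63 with library size alone, and -1.58 and -0.57 with ERCC scaling. The share of higher genes among all calls was 44.2% in irld and 45.3% in N2 with TMM, 21% and 21.1% with library size alone, and 1.46% and 9.13% with ERCC scaling. With ERCC scaling nas-6 in irld at 72 h turned to -0.34, 1.24 above the median gene. The cause was not tested for any change given here.

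Cuticlins called in N2 at 12 h numbered 4, but 0 with ERCC scaling, 7 with limma-voom and 8 with only the compared groups. In irld at 12 h they numbered 3, but 0 with ERCC scaling, 1 with no filter and 0 with only the compared groups. The 15 of irld at 24 h were 7 with ERCC scaling. At 72 h against 24 h the 2 in N2 were 5 with library size alone, 8 with DESeq2 and 0 with ERCC scaling, limma-voom, no filter or only the compared groups. The 1 in irld was 0 with library size alone, ERCC scaling, DESeq2, limma-voom, no filter or only the compared groups. Astacins called at 12 h, 6 in each strain, were 0 in both with ERCC scaling and 0 in irld with only the compared groups. The 3 astacins higher at 24 h in each strain were not called there with ERCC scaling. Astacins higher at 72 h, 2 in irld and 4 in N2, were 1 in each with ERCC scaling and 1 in N2 with library size alone. At 72 h against 24 h the 4 astacins in irld were 0 with ERCC scaling and 2 with limma-voom, no filter or only the compared groups, and the 3 in N2 were 0 with ERCC scaling.

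Leaving out 1 replicate number or 1 library gave, for cuticlins in irld, 0 to 4 calls at 12 h, 5 to 17 at 24 h, 6 to 18 at 48 h, 9 to 19 lower at 72 h, 0 to 1 at 72 h against 24 h and 6 to 18 over all times. In N2 it gave 0 to 3 at 12 h, 12 to 21 at 48 h, 17 to 21 lower at 72 h, 0 to 7 at 72 h against 24 h and 14 to 22 over all times. For astacins in irld it gave 0 to 9 at 12 h, 9 to 18 at 24 h, 12 to 21 at 48 h, 1 to 3 at 72 h against 24 h and 11 to 22 over all times. In N2 it gave 0 to 6 at 12 h, 2 to 5 higher at 72 h and 1 to 4 at 72 h against 24 h. No alternative and no fit with a library left out called a member between strains. Where a count was 0, unadjusted p under 0.05 was met by 2 to 8 cuticlins and 4 to 6 astacins with ERCC scaling, by 7 cuticlins with library size alone, 6 with DESeq2, 3 with limma-voom and 5 or 15 with no filter, and by 0 to 6 cuticlins and 10 astacins with only the compared groups, all for comparisons between times.

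With the replicate block, which gives both strains 1 term per number, the 3 astacins called in N2 at 72 h against 24 h became 5, and cutl-9, cutl-15 and nas-31 were called lower in irld at 72 h. It changed no other count by over 1.5 times and no other call of a named member at 72 h against 6 h. Depth limits the lowest members, and 13 were not tested.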
